A study of Mus musculus with 20 samples.

Results

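The 10 genes described here encode subunits of Polycomb repressive complex 2 (PRC2) and of canonical Polycomb repressive complex 1 (PRC1). They were chosen by name, as 5 genes of PRC2 (Ezh1, Ezh2, Eed, Suz12 and Jarid2) and 5 of canonical PRC1 (Cbx2, Cbx7, Bmi1, Pcgf2 and Phc1), among 24315 genes measured in all. RNA was sequenced from LSK cells (Lin-Sca1+c-Kit+, a stem and progenitor population) and MEP cells (megakaryocyte-erythroid progenitors) sorted from the bone marrow of C57BL/6 mice. In each cell type there were 3 libraries from wild type (WT) mice, 3 from Dnmt3a-/- mice, 2 from Bcor-/- mice and 2 from double knockout mice (Bcor-/-Dnmt3a-/-, DKO), 20 in all, and every mouse gave 1 library of each cell type. Bcor encodes a corepressor that belongs to a variant PRC1 and not to the complexes described here, and Dnmt3a encodes a DNA methyltransferase. The study induced both deletions with pIpC through Mx1-Cre, an interferon-inducible Cre, and used mice with untargeted genes as controls. It described the DKO mice as leukemic and deletion of Dnmt3a in the single knockout as partial, whereas the sample labels give neither age nor disease stage. One Bcor library of each cell type carries the numbers of 2 mice. In bulk samples, a smaller share of cells of a given type and less RNA per cell cannot be told apart.

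PRC2 places methyl groups on lysine 27 of histone H3 through Ezh2 or its paralog Ezh1, and canonical PRC1 binds that mark through a Cbx protein and compacts chromatin. Ezh2 prevails in dividing cells and Ezh1 in resting cells, Cbx2 and Cbx7 are alternative readers of the mark, and Bmi1 and Pcgf2 are alternative partners of the Ring1 ubiquitin ligases. In blood, Bmi1 and Cbx7 are known for maintaining stem cell self-renewal, and Ezh2 is a recurrent target of mutation in myeloid disease.

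The libraries of 1 genotype resembled each other closely except in DKO. Across all tested genes the correlation of log2 values between replicates was 0.971 or higher within WT, Dnmt3a and Bcor, and only 0.849 between the DKO LSK libraries and 0.815 between the DKO MEP libraries. Bcor RNA was at 29.5 to 32.4 FPKM in WT LSK, 22.4 and 23.2 in Bcor and 24.0 and 37.4 in DKO, and Dnmt3a RNA at 16.1 to 19.8 in WT LSK, 11.3 to 16.9 in Dnmt3a and 10.4 and 10.9 in DKO. In MEP, Bcor RNA was at 21.3 to 26.9 FPKM in WT, 19.5 and 22.4 in Bcor and 19.6 and 26.7 in DKO. Dnmt3a RNA was at 5.49 to 6.64 in WT MEP, 2.56 to 5.40 in Dnmt3a and 6.85 and 3.44 in DKO, so that DKO replicate 1 was above every WT MEP library. A value over the whole gene does not check a deletion of single exons. The sorted phenotype was also altered at the RNA level. Kit, a marker of both gates, was at 148 to 174 FPKM in WT LSK and at 47.7 and 19.4 in DKO LSK. Cd34, which is not part of the LSK gate, was at 548 to 650 against 5.87 and 37.3. Ly6a, the gene of the LSK marker Sca1, was not lower, at 59.8 to 70.7 in WT LSK and 63.5 and 220 in DKO LSK. The summed level of 14 erythroid markers was 64.8 to 171 FPKM in WT LSK, 221 and 284 in Bcor LSK, and 6415 and 24033 in DKO LSK, with no defining marker at 0. In DKO MEP it was 4392 in replicate 1 and 97478 in replicate 2, against 1142 to 1999 in WT, and Hbb-b1 was listed at 0 in replicate 2. The summed level of 7 B cell markers was 3419 and 1122 in DKO LSK and 2795 and 122 in DKO MEP, against at most 174 in any WT library. Macrophage markers summed to 1365 FPKM in DKO LSK replicate 1 and 719 in DKO MEP replicate 1, and to 42.8 and 7.79 in LSK and MEP of replicate 2, against 31.8 to 277 in WT LSK and 2.02 to 3.44 in WT MEP. T and NK cell markers summed to 101 and 138 in DKO MEP against 32.5 to 68.1 in WT, and megakaryocyte markers to 18.0 and 71.0 against 89.9 to 343. The part of these markers in the results below was not tested. FPKM, the unit used throughout, scales fragments by transcript length and library size, so that levels can be compared between genes.

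In WT cells, PRC2 core subunits were the most abundant of the 10 genes. In WT LSK, Ezh2 had the highest level (76.2 to 86.7 FPKM), then Suz12 (58.4 to 65.5), which the enzyme needs for activity and stability, and Eed (38.4 to 41.2), which binds the methyl mark. These ranges did not overlap. Phc1 (18.9 to 24.9) and Bmi1 (19 to 24.9) followed with overlapping ranges, then Jarid2 (14.9 to 17.1), Ezh1 (12.8 to 16.1) and Cbx7 (12.9 to 15.7), each overlapping the next. Cbx2 (10.5 to 12.7) and Pcgf2 (3.34 to 4.62) were lowest. WT MEP kept the order of the leading 3 genes, with Ezh2 at 116 to 121, Suz12 at 85.5 to 93.7 and Eed at 40.9 to 46.3 FPKM. The lowest were again Cbx2 (2.54 to 3.98) and Pcgf2 (1.71 to 2.86), whose ranges overlapped in MEP.

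The WT ranges of LSK and MEP did not overlap for 7 of the 10 members, nor for 73.1% of all genes tested in both. Comparing LSK with MEP of the same mouse, FPKM were higher in LSK in each of the 3 WT mice for Cbx2 (2.66 to 4.19 times), Cbx7 (3.07 to 3.44 times), Phc1 (2.48 to 2.82 times), Ezh1 (1.81 to 2.12 times) and Pcgf2 (1.17 to 2.70 times). Ezh2 and Suz12 were lower in LSK in each mouse, at 0.655 to 0.720 and 0.624 to 0.743 times the MEP level. For Eed, Jarid2 and Bmi1 the WT ranges of the cell types overlapped. These ratios are given without a test, since each cell type came as a separate table and the scaling between the tables is not known.

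**Figure D1:**
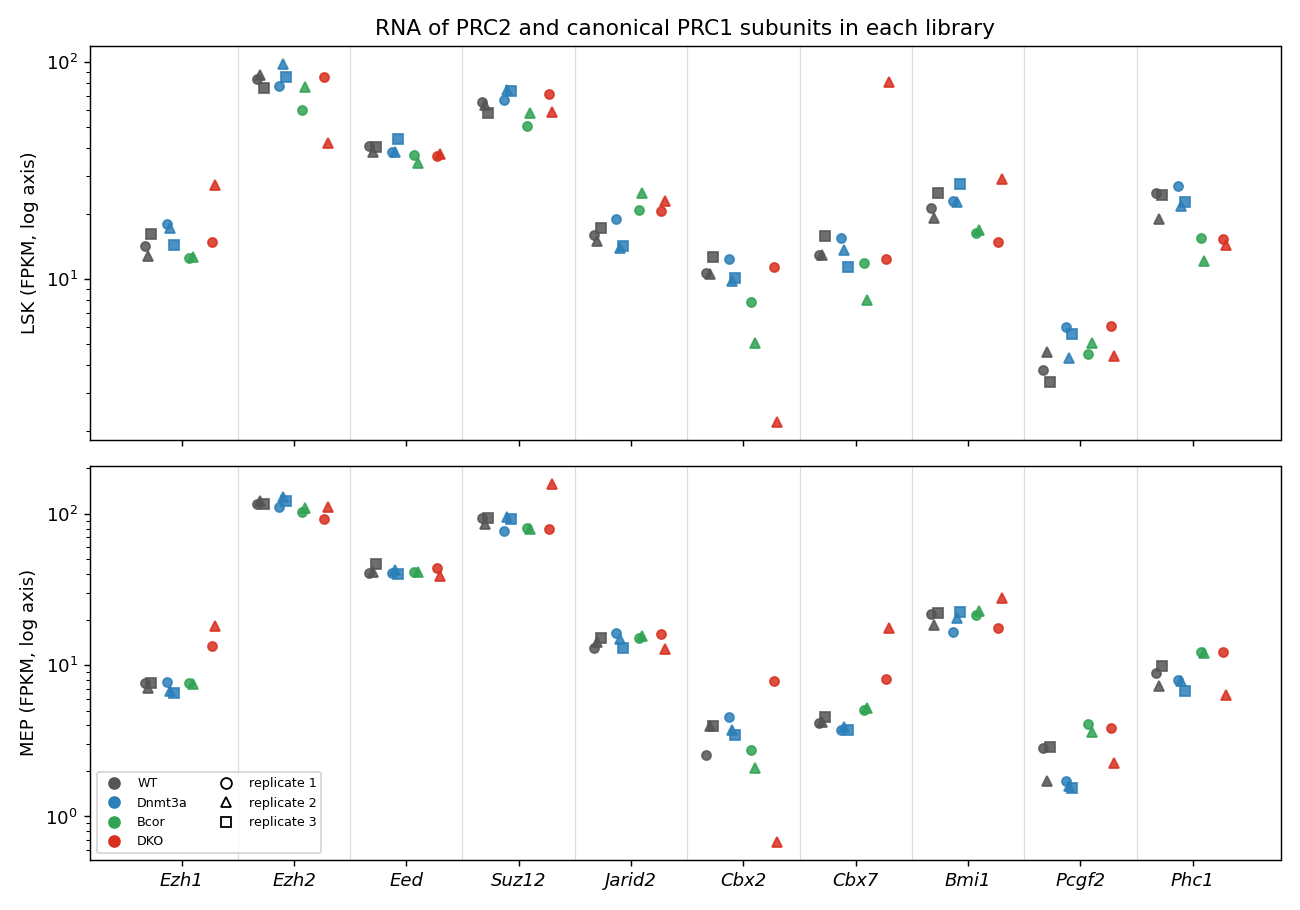
FPKM of the 10 genes in each library, LSK above and MEP below, on log axes. Colors mark the genotype and symbols the replicate. Most genotypes form tight groups, while the DKO replicates lie far apart for Cbx2 (11.3 and 2.2 FPKM in LSK) and Cbx7 (12.4 and 80.5 in LSK).

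The comparison of DKO with WT asked how Polycomb RNA in stem and progenitor cells differed in mice that had lost both genes. The study described these mice as leukemic. A gene was called where the unadjusted limma p was below 0.05 and the fold change exceeded 1.5, as the study set it. In MEP, Ezh1 and Cbx7 rose and no member fell, so 2 of 10 members were called where 30.9% of all tested genes were. In LSK none of the 10 members was called, whereas 28.3% of all tested genes were. At an unadjusted p under 0.05 without the fold change, 2 members passed in LSK (Jarid2 and Phc1), and Phc1 alone had a limma adjusted p under 0.05. The median log2 fold change of the 10 members was -0.0027 in LSK and 0.070 in MEP, close to the medians over all tested genes (0.019 and 0.018). All 10 members passed the filter on low values in both cell types.

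Ezh1, the alternative enzyme of PRC2, rose in DKO MEP. It was at 7.66, 7.05 and 7.62 FPKM in WT MEP and at 13.5 and 18.2 in DKO MEP. Both DKO libraries lay above every other MEP library, of which the highest had 7.70. The increase was 0.98 ± 0.15 on the log2 scale of FPKM + 1 (SE; limma adjusted p = 0.00216). It was larger than the spread between replicates, and the log2 fold change was 0.78 with DKO replicate 1 alone and 1.19 with replicate 2 alone. Granulocyte and monocyte markers were higher in the same libraries, with a summed level of 7123 and 15952 FPKM in DKO MEP against 327 to 797 in WT and 8 of 12 called, all higher, where 30.9% of all tested genes were called, and their part in the rise of Ezh1 and of Cbx7 was not tested. A two-sided exact permutation test of Ezh1 gave p = 0.1, the smallest that 2 libraries against 3 allow. In LSK, Ezh1 was at 14.2, 12.8 and 16.1 FPKM in WT and at 14.8 and 27.1 in DKO. Only replicate 2 exceeded the WT range, and the difference from WT was not called (log2 0.46 ± 0.22, limma adjusted p = 0.156).

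Ezh2, the main enzyme, was low in 1 DKO library. It was at 83.7, 86.7 and 76.2 FPKM in WT LSK and at 85.6 and 42.5 in DKO LSK. Replicate 1 was within the WT range and replicate 2 was below all other LSK libraries, and the difference was not called (log2 -0.44 ± 0.26, limma adjusted p = 0.23). In MEP, WT had 116, 121 and 116 FPKM and DKO 93.2 and 111. Both DKO values were below WT, by a difference that did not pass the test (log2 -0.21 ± 0.11, limma adjusted p = 0.156).

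The ratio of Ezh1 to Ezh2 FPKM summarises both. In MEP it was 0.0583 to 0.0658 in WT libraries and 0.0528 to 0.0690 after loss of Dnmt3a. It was 0.0686 and 0.0737 in Bcor, against 0.144 and 0.164 in DKO. In LSK it was 0.148 to 0.212 in WT and 0.173 and 0.639 in DKO. The DKO replicates were thus alike in MEP and unlike in LSK. Among 22 proliferation genes, E2f2 alone was called in DKO MEP (15.3 to 33.5 FPKM in WT, 49.1 and 515 in DKO), where 30.9% of all tested genes were. In DKO LSK, 3 of 22 were called (Mki67, E2f2 and Rrm2, all higher), where 28.3% of all tested genes were, and the list median was -0.12. The summed proliferation level was 2672 in replicate 1 and 1455 in replicate 2 against 1884 to 2095 in WT. The low Ezh2 thus stood in the LSK library with the lower sum. In DKO MEP the sum was 2656 in replicate 1 and 5067 in replicate 2, against 2876 to 3658 in WT. There the lower Ezh2 (93.2 FPKM) also stood with the lower sum. The higher Ezh1 to Ezh2 ratio (0.164) stood with the higher sum in MEP and with the lower sum in LSK. Whether Ezh2 and the sum are linked was not tested.

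Cbx7, a reader of the PRC2 mark, rose in DKO MEP, in the libraries with the higher granulocyte and monocyte sums. It was at 4.16, 4.21 and 4.57 FPKM in WT MEP and at 8.07 and 17.6 in DKO MEP. Both DKO libraries exceeded all others, the highest of which was a Bcor library at 5.22, and the increase was 1.29 ± 0.26 (log2, SE; limma adjusted p = 0.00714). Without DKO replicate 2 it was 0.77. In LSK, WT had 12.9, 12.9 and 15.7 FPKM and DKO 12.4 and 80.5. Replicate 1 was below the WT range and replicate 2 far above it, so that the sign of the difference (log2 1.16 ± 0.59, limma adjusted p = 0.172) depended on replicate 2, and without it the value was -0.15. Cbx7 overlaps the gene Apobec3 on the opposite strand in the GRCm38 annotation, and whether counting used strand is not stated. Apobec3 was at 119 to 125 FPKM in WT LSK and at 180 and 178 in DKO LSK, and at 96.2 to 129 in WT MEP and 142 and 131 in DKO MEP. It was thus above WT in all 4 DKO libraries, and its part in the Cbx7 values was not tested.

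Cbx2, an alternative reader, was at 10.6, 10.5 and 12.7 FPKM in WT LSK and at 11.3 and 2.2 in DKO LSK. In MEP it was at 2.54, 3.97 and 3.98 in WT and at 7.91 and 0.681 in DKO. Replicate 1 was thus the highest and replicate 2 the lowest of the 10 MEP libraries, and neither cell type gave a call (limma adjusted p = 0.145 in LSK and 0.812 in MEP). The ratio of Cbx7 to Cbx2 was 1.21 to 1.24 in WT LSK and 1.06 to 1.64 in WT MEP. Both Bcor libraries were above every WT library, at 1.501 and 1.58 in LSK and 1.85 and 2.51 in MEP. In DKO it was 1.09 and 1.02 in LSK and MEP of replicate 1, against 36.6 and 25.9 in LSK and MEP of replicate 2. The same mouse therefore gave the extreme ratio in both of its sorted populations. Its LSK library had the highest summed erythroid level of all LSK libraries and its MEP library that of all MEP libraries, and the part of erythroid cells in these ratios was not tested.

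**Figure D2:**
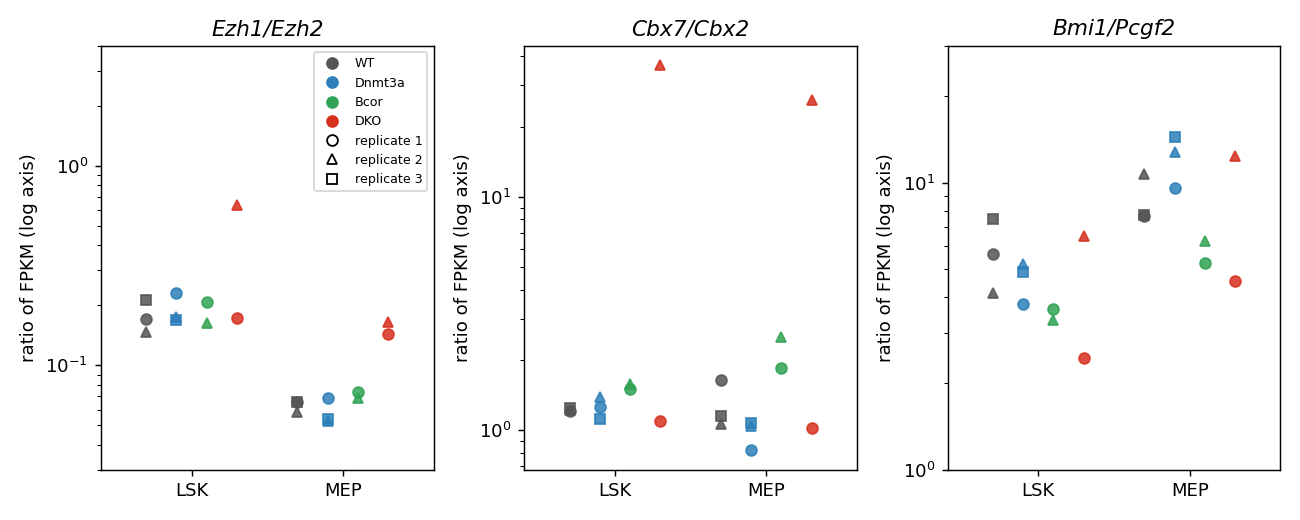
Ratios of FPKM between alternative subunits in each library, on log axes, for the PRC2 enzymes (left), the Cbx readers (middle) and the partners of Ring1 proteins (right). The Ezh1 to Ezh2 ratio was above WT in both DKO MEP libraries, and the Cbx7 to Cbx2 ratio was highest in DKO replicate 2 (36.6 in LSK and 25.9 in MEP), with both Bcor libraries next (1.501 to 2.51).

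Sequence before the start sites is shown for Ezh1, Ezh2 and Cbx7, 3 of the 4 genes in the enzyme and reader ratios, because Ezh1 and Cbx7 were higher and Ezh2 was lower in the same DKO LSK library. The RefSeq promoter table of GRCm38.p6 held 9 of the 10 members (all but Cbx2), with 10 windows. Of the 250 bases before each start, those outside every GENCODE exon are printed 5′ to 3′ on the gene's strand. The build named in the submitters' processing notes is mm9, so these positions apply to GRCm38 and not to the deposited tables. The Ezh1 stretch is chr11:101226464-101226713 (minus strand), that of Ezh2 is chr6:47595059-47595183 (minus strand), and that of Cbx7 is chr15:79932769-79932896 (minus strand, within the gene as the longest transcripts define it). Capitals mark CCAAT on either strand, a box common in promoters of cell cycle genes.
Ezh1: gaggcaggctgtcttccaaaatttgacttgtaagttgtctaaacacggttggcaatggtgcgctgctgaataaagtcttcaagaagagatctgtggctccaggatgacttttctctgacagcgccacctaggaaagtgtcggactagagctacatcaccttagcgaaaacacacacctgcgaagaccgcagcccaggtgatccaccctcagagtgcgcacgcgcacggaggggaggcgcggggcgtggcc
Ezh2: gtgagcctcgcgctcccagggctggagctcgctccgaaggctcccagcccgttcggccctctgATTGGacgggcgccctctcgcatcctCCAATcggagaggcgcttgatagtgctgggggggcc
Cbx7: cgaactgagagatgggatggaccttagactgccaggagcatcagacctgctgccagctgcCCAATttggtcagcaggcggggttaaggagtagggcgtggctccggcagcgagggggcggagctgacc
The whole Ezh2 window held 3 such boxes, the Cbx7 window 1 and the Ezh1 window 0, whereas 33.8% of all 32851 windows held at least 1. The GATA motif AGATAA was searched on both strands and was in none of the 10 member windows and in 9.99% of all windows. The E2F motifs TTTCCCGC and TTTGGCGC were in the Suz12 window alone among members and in 1.3% of all windows. The Ezh2 and Cbx7 windows each held 23 CpG and the Ezh1 window 14, where the median over all windows was 6. The motifs do not overlap one another, and a match or its absence describes these letters only.

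The scaffold subunits of PRC2, Eed and Suz12, were not called in DKO. Eed was at 41.2, 38.4 and 40.6 FPKM in WT LSK and at 36.8 and 37.8 in DKO, and its log2 difference was -0.10 ± 0.10. In MEP it was at 40.9, 41.1 and 46.3 in WT and at 43.7 and 39.0 in DKO, with overlapping groups. Suz12 was at 65.5, 63.5 and 58.4 FPKM in WT LSK and at 71.5 and 58.7 in DKO. In MEP it was at 93.7, 85.5 and 93.6 in WT and at 79.6 and 159 in DKO, so that DKO replicate 2 was above the WT range and replicate 1 below it (log2 0.30 ± 0.24, limma adjusted p = 0.359). Suz12 and Eed each overlap 1 annotated gene on the opposite strand, as do Jarid2 (a snoRNA) and Ezh2 (2 genes, a lincRNA and a pseudogene), and whether reads were assigned by strand is not stated. The Ezh2 values in the ratio above carry the same limit.

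Jarid2, a cofactor that helps PRC2 to reach its targets, was higher in LSK of both the Bcor and the DKO genotype. It was at 15.9, 14.9 and 17.1 FPKM in WT LSK, 20.8 and 25.0 in Bcor, and 20.6 and 22.8 in DKO, without overlap with WT in either. In Dnmt3a LSK it was at 18.9, 14.0 and 14.1, overlapping WT. The differences were 0.49 ± 0.16 in Bcor (limma adjusted p = 0.0923) and 0.42 ± 0.16 in DKO (limma adjusted p = 0.0744) on the log2 scale, both under the fold change needed for a call. In MEP, WT had 12.9 to 15.2 FPKM and Bcor and DKO had 12.8 to 16.2, with no separation.

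Phc1, a Polyhomeotic protein through which canonical PRC1 polymerises, was lower in LSK of both the Bcor and the DKO genotype. It was at 24.9, 18.9 and 24.3 FPKM in WT and 26.9, 21.7 and 22.7 with Dnmt3a deleted. Bcor libraries had 15.5 and 12.2 and DKO libraries 15.4 and 14.3. All 4 Bcor and DKO libraries were below all 6 WT and Dnmt3a libraries. Phc1 fell in Bcor (log2 -0.68 ± 0.16, limma adjusted p = 0.0423), and this was the only member called in that comparison, 1 of 10 where 13.2% of all tested genes were called. Without Bcor replicate 2 the value was -0.51 and the call was lost. In DKO the log2 difference was -0.57 ± 0.16 (limma adjusted p = 0.028), which missed the fold change threshold at 1.49-fold. The stem and multipotent progenitor markers moved with it. Their summed level was 1318 to 1551 FPKM in WT LSK, 998 and 671 in Bcor and 187 and 399 in DKO, and their part in the lower Phc1 was not tested.

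In MEP, Phc1 took the opposite direction in Bcor. It was at 8.82, 7.27 and 9.81 FPKM in WT, 12.2 and 11.98 in Bcor, and 12.3 and 6.38 in DKO. Both Bcor libraries were above every WT library, by 0.45 ± 0.24 on the log2 scale (limma adjusted p = 1), and the DKO libraries lay on either side of the WT range. The Bcor effect in LSK minus that in MEP was -1.13 ± 0.24, with an unadjusted p of 0.00103 and a limma adjusted p of 0.0803. Both Bcor libraries were below the WT mean in LSK and above it in MEP for 4 of 10 members (Ezh1, Cbx7, Bmi1 and Phc1). This held for 11.7% of all genes tested in both (1264 of 10773), and 1532 lay the reverse way. For Ezh1 both Bcor MEP libraries (7.59 and 7.51 FPKM) were within the WT range of 7.05 to 7.66. For Bmi1 replicate 1 was within the WT MEP range (21.5 against 18.4 to 22.2) and replicate 2 above it (22.7). No member passed the test of the difference, which was added after the values had been seen, and 0.251% of all tested genes did. At an unadjusted p under 0.05, Bmi1 also passed (difference -0.45 ± 0.15, limma adjusted p = 0.179).

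**Figure D3:**
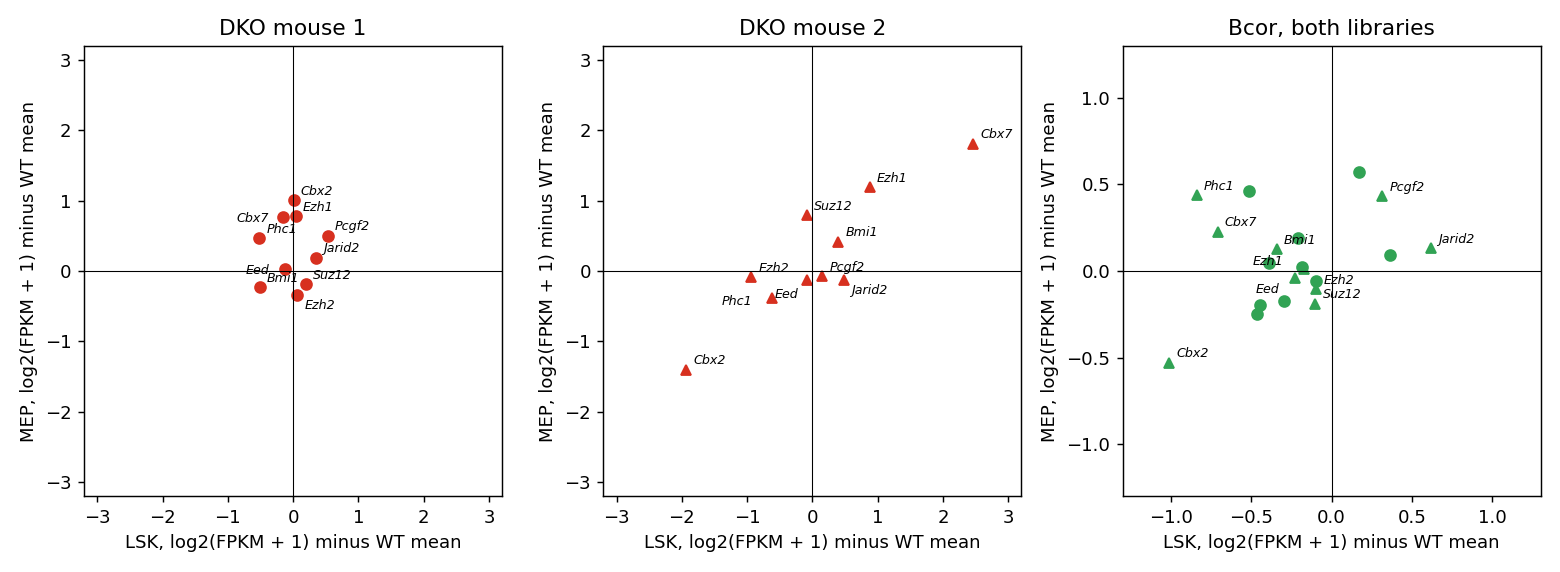
Distance of each gene from the WT mean in LSK (horizontal) and in MEP (vertical), in log2(FPKM + 1), for the DKO mice and for Bcor (circles replicate 1, triangles replicate 2; in the Bcor panel, which has a narrower scale, names stand beside replicate 2). DKO mouse 2 shows Cbx7 high and Cbx2 low in both populations, mouse 1 has Cbx7 above the WT mean in MEP only, and Phc1 is left of and above zero in both Bcor libraries.

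In Bcor LSK most members were somewhat low. In 7 of 10 members (Ezh1, Eed, Suz12, Cbx2, Cbx7, Bmi1 and Phc1) both Bcor libraries were below every WT library, where 27% of all tested genes were. Except for Phc1 none of these was called. Cbx2 had the largest difference of the 10, at 7.87 and 5.08 FPKM against 10.6, 10.5 and 12.7 in WT (log2 -0.74 ± 0.46, limma adjusted p = 0.361). Bmi1 was at 16.3 and 16.9 against 21.4, 19 and 24.9 (log2 -0.36 ± 0.24, limma adjusted p = 0.388). Cbx7 was at 11.8 and 8.05 against 12.9, 12.9 and 15.7 (log2 -0.46 ± 0.59, limma adjusted p = 0.687). These standard errors come from a fit over all 4 genotypes, so the wide spread of the DKO libraries for Cbx2 and Cbx7 enters them. In a fit of only Bcor and WT, Cbx2 was called as well. Summed granulocyte and monocyte markers were at 17786 and 25415 FPKM in Bcor LSK against 3559 to 13602 in WT. Summed T and NK cell markers were at 454 and 619 against 213 to 241. Of these lists, 5 of 12 and 1 of 7 were called, all higher, where 13.2% of all tested genes were. The list medians were 1.12 and -0.19 on the log2 scale, so the T and NK sum did not reflect most of its genes. The part of either list in these values was not tested.

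In Bcor MEP no member was called by limma, and 2.76% of all tested genes were. None had an unadjusted p under 0.05. Pcgf2, an alternative to Bmi1 in canonical PRC1, came nearest at 4.10 and 3.62 FPKM against 2.84, 1.71 and 2.86 in WT (log2 0.50 ± 0.24, limma adjusted p = 0.958). Cbx7 was slightly above WT at 5.07 and 5.22.

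Loss of Dnmt3a alone left all 10 members uncalled in both cell types, where 0.443% of all tested genes in LSK and 0.412% in MEP were called. No member had an unadjusted p under 0.05. Suz12 in LSK (67.0, 74.0 and 73.5 FPKM against 58.4 to 65.5) and Cbx7 in MEP (3.74, 3.89 and 3.71 against 4.16 to 4.57) did not overlap WT, with log2 differences of 0.19 ± 0.11 and -0.15 ± 0.23.

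**Figure D4:**
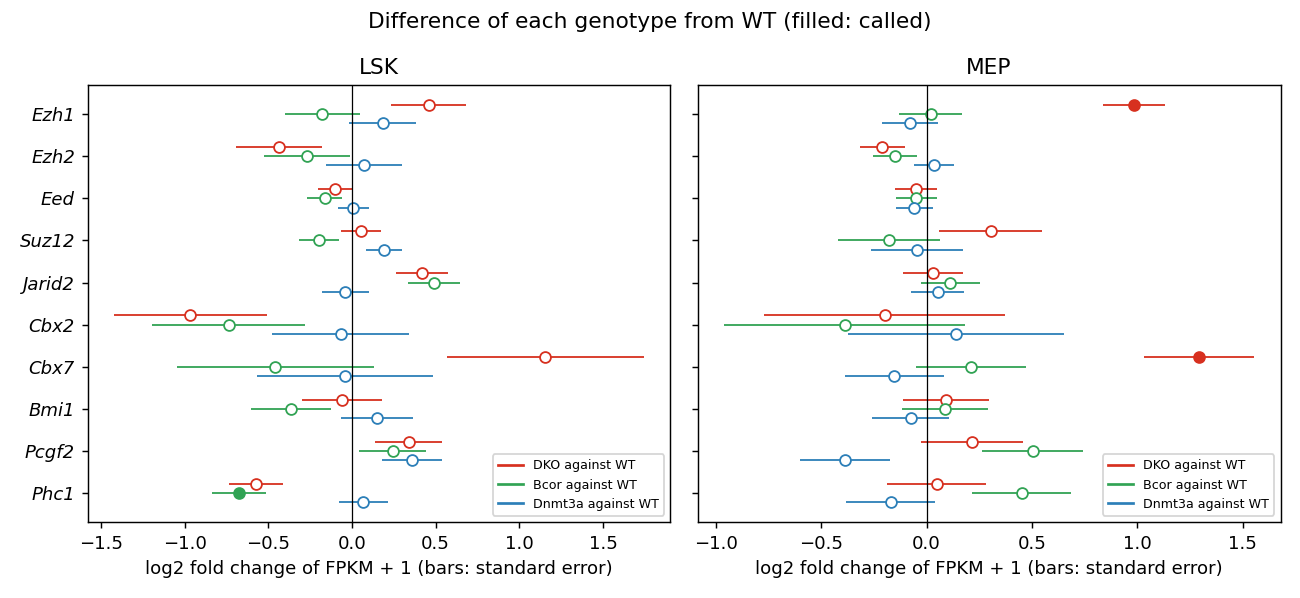
Log2 fold change of FPKM + 1 against WT for each gene in DKO, Bcor and Dnmt3a, in LSK (left) and MEP (right). Bars are standard errors and filled points were called. Only Ezh1 and Cbx7 in DKO MEP and Phc1 in Bcor LSK are filled.

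Bmi1 and Pcgf2 were not called in DKO. Bmi1 was at 14.9 and 28.9 FPKM in DKO LSK, on either side of the WT range, and at 17.5 and 28.0 in DKO MEP, again on either side of WT (18.4 to 22.2). Pcgf2 was at 6.06 and 4.42 in DKO LSK against 3.34 to 4.62 in WT, and at 3.86 and 2.26 in DKO MEP against 1.71 to 2.86. The ratio of Bmi1 to Pcgf2 was lower in DKO replicate 1 (2.45 in LSK and 4.55 in MEP) than in every WT library (4.12 to 7.47 in LSK and 7.69 to 10.8 in MEP). Both Bcor libraries were also below every WT library, at 3.62 and 3.32 in LSK and 5.23 and 6.28 in MEP. In DKO replicate 2 it was 6.52 in LSK and 12.4 in MEP, within the WT range in LSK and above it in MEP. In Dnmt3a it was below WT in LSK replicate 1 (3.78) and above WT in MEP replicates 2 and 3 (12.8 and 14.5). The remaining Dnmt3a libraries were within the WT ranges.

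The DKO replicates lay on opposite sides of the WT mean for 5 of 10 members in LSK and 7 of 10 in MEP, where 32.6% and 33.1% of all tested genes did so. The Bcor replicates did so for 0 of 10 members in either cell type, where 20.1% of all tested genes did in LSK and 25% in MEP. With 1 DKO library left out, the other is assumed to vary like the other genotypes. Without DKO replicate 1, 5 members were called in DKO LSK (Ezh1, Ezh2, Cbx2, Cbx7 and Phc1), where 39.5% of all tested genes were, and 4 in DKO MEP (Ezh1, Suz12, Cbx2 and Cbx7), where 41.8% were. Without DKO replicate 2, limma called 0 members in LSK, where 32% of all tested genes were called, and 2 in MEP, where 35.5% were.

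DKO was also compared with Bcor, genotypes that differ by loss of Dnmt3a. The study described the DKO mice as leukemic and found no leukemia infiltration in Bcor mice. Loss of Dnmt3a, disease and the altered cell makeup of the DKO sorts therefore cannot be told apart in this comparison. Ezh1 and Cbx7 were higher in DKO in both cell types, 2 of 10 members in LSK, where 30.6% of all tested genes were called, and 2 of 10 in MEP, where 27.9% were. In MEP the differences were 0.96 ± 0.16 for Ezh1 (limma adjusted p = 0.00492) and 1.08 ± 0.29 for Cbx7 (limma adjusted p = 0.0267). In LSK they were 0.64 ± 0.25 and 1.62 ± 0.65, with limma adjusted p of 0.0795 and 0.0894, and were 0.22 and 0.31 without DKO replicate 2. In a fit of only DKO and Bcor the calls of both genes in LSK (limma adjusted p of 0.334 and 0.370) and of Cbx7 in MEP (0.263) were lost, and Ezh1 in MEP was still called (0.159). This comparison shares its DKO libraries with that against WT.

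The DKO effect differed between LSK and MEP for 1 member, Cbx2, where 20% of all tested genes differed. The effect in LSK minus that in MEP was -0.77 ± 0.23 on the log2 scale (limma adjusted p = 0.0436), and the adjusted p was between 0.0623 and 0.131 when any 1 WT, Dnmt3a or Bcor mouse was left out. The call was also lost without DKO mouse 1 (limma adjusted p = 0.113), with a pseudocount of 0.1 (0.186), quantile normalization (0.136), the replicate block (0.0866) and variance weights (0.425). As plain FPKM over the WT mean, Cbx2 was at 0.195 in both LSK and MEP of DKO mouse 2, and at 1.003 in LSK and 2.26 in MEP of mouse 1. Ezh1 (-0.52 ± 0.18, limma adjusted p = 0.0679) did not pass.

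Other subunits of these complexes, from a list of 8 PRC2 and 9 canonical PRC1 genes, were compared in the same way between DKO and WT. In LSK, 5 of 8 PRC2 genes were called, 1 higher and 4 lower, where 28.3% of all tested genes were, with a list median of -0.46 against 0.019 over all tested genes. Rbbp7, a histone-binding subunit, fell from 181 to 199 FPKM in WT LSK to 116 and 89.5 in DKO (limma adjusted p = 0.00133). Phf19, a subunit that recruits PRC2, was at 8.88 to 9.82 in WT LSK and at 6.58 and 3.82 in DKO (limma adjusted p = 0.0130). Phf1, its paralog, was at 3.59 to 4.97 in WT MEP and at 6.59 and 17.6 in DKO (limma adjusted p = 0.0275). Lcor, whose locus encodes a PRC2 accessory protein, was at 0.828 to 1.86 in WT MEP and at 2.83 and 10.2 in DKO (limma adjusted p = 0.0259). In MEP 3 of 8 were called, 2 higher and 1 lower, where 30.9% of all tested genes were, and the list median was 0.17, of opposite sign to LSK. These lists were chosen with earlier results of these data known and are a description.

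Of the other canonical PRC1 genes, 4 of 9 were called in LSK, 2 higher and 2 lower, and 4 of 9 in MEP, 1 higher and 3 lower, where 28.3% and 30.9% of all tested genes were called. Scml2, a Polycomb protein with MBT repeats, was at 2.09 to 2.65 FPKM in WT LSK and at 0.149 and 0.247 in DKO, and at 3.45 to 3.62 in WT MEP and at 0.455 and 0.754 in DKO (limma adjusted p = 0.000723 and 0.000935). Both DKO replicates were low in both populations. Cbx6, a further reader, was lower, at 17.6 and 13.5 in DKO LSK against 26.7 to 34.6 in WT and at 9.58 and 2.47 in DKO MEP against 14.0 to 20.2 (limma adjusted p = 0.0079 and 0.0176). Phc2, the paralog of Phc1, was at 51.2 and 51.1 in DKO LSK against 29.6 to 30.7 in WT (limma adjusted p = 0.0017), opposite to Phc1.

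Among enzymes that remove the marks, 0 of 2 H3K27 demethylases and 0 of 5 tested subunits of H2A deubiquitinases were called by limma in DKO LSK. In DKO MEP, Kdm6a (15.3 and 38.9 FPKM against 11.6 to 14.3 in WT) and Mysm1 (9.18 and 11 against 4.48 to 7.0) were called higher, 1 of 2 and 1 of 5, where 30.9% of all tested genes were called, with limma adjusted p of 0.0606 and 0.0232. Of 8 tested genes known to be repressed by Polycomb proteins in blood cells, 5 were called in DKO LSK, 1 higher (Cdkn2a) and 4 lower, where 28.3% of all tested genes were called. In DKO MEP limma called 0 of 3, with 0 at an unadjusted p under 0.05. Cdkn2a, a cell cycle inhibitor silenced by Bmi1 and Cbx7, passed the filter on low values only through the DKO LSK libraries, so its call follows from the filter and its values are given as a description. It was listed at 0 in all WT, Dnmt3a and Bcor libraries of both cell types, at 11.1 and 0.887 FPKM in DKO LSK and at 8.23 and 0.276 in DKO MEP. Hoxa9 (24.6 to 34.4 in WT LSK, 1.87 and 6.21 in DKO), Meis1 (49.4 to 70.5 against 0.930 and 7.53) and Hmga2 (5.07 to 6.67 against 0.127 and 0.503), which mark immature cells, were lower (limma adjusted p = 0.000409, 0.00055 and 0.000501).

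The genes whose levels followed Ezh1 and Ezh2 most closely over the 10 libraries of a cell type are given as a description. For Ezh1 these were Kdm2a, Cdip1 and Synrg in LSK (Pearson r = 0.967 to 0.982) and Baz2a, Chil3 and Sesn1 in MEP (r = 0.993 to 0.994). For Ezh2 they were Pdha1, Atxn10 and Pole in LSK (r = 0.957 to 0.968) and Cnot10, Tarsl2 and Abhd16a in MEP (r = 0.955 to 0.966). The libraries share genotypes and the DKO libraries lie at the extremes of most of these genes, so r has few independent points behind it.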

How the data were processed

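RNA-seq of sorted LSK and MEP cells was analyzed in 20 libraries, 10 per cell type. The authors deposited FPKM, 1 file for each cell type, of 24315 genes. The submitters' processing notes name STAR 2.5.1b, SAMtools 1.9, Cufflinks 2.2.1 and the build mm9, with no role given for each, and how the libraries were scaled to each other is not given in the sources used here. The deposited FPKM hold no counts, so the depth of each library is unknown and no counting interval was computed. Steps between the lowest FPKM of genes gave a rough relative depth of 0.779 to 1.32 times WT replicate 1 in LSK and 1.0 to 1.60 times in MEP. An FPKM of 0 is reported as listed at 0.

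The log2 of FPKM plus a pseudocount of 1 was used, which understates changes of low genes, and only genes averaging 1 FPKM or more across the 10 libraries entered (11952 in LSK, 10933 in MEP). limma 3.58.1 in R 4.3.3 fitted 1 mean per genotype with a mean-variance trend, and p-values were adjusted over all tested genes by Benjamini-Hochberg. A call needed an unadjusted p below 0.05 and more than a 1.5-fold change, as in the study, whose methods name no test. Effects were compared between cell types by limma on the LSK minus MEP difference of each mouse, at an adjusted p under 0.05. Replicates are separate mice per the labels, except that 1 Bcor library per cell type names 2 mice. The study gives 3 mice for each genotype in LSK, whereas 2 Bcor and 2 DKO libraries per cell type were analyzed here. Members and lists were chosen with earlier results of these data known. Named genes are the 10 members, of each other list at most 4 genes called in DKO with the smallest p, and the 3 genes most correlated with Ezh1 and Ezh2. A gene that this rule names is not reported here. Alternatives were other pseudocounts, filters, scalings, variance models, a replicate block and leaving out each library. The procedure was tested on simulated data. Promoter windows are those of RefSeq for GRCm38.p6 and exons those of GENCODE vM21, both searched with Python 3.11.15, and figures were drawn with matplotlib 3.10.9.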

Additional observations from a re-analysis of the deposited data

Results flagged for a closer look

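Of 20 effects on members compared between LSK and MEP (10 of DKO and 10 of Bcor), 1 differed by the test. A further 4 are given because the Bcor libraries of LSK and those of MEP lay on opposite sides of the WT mean, however small the distance. The DKO effect on Cbx2 in LSK minus that in MEP was -0.77 on the log2 scale, by the test of that difference (limma adjusted p = 0.0436). That call was lost when any 1 WT, Dnmt3a or Bcor mouse was left out (limma adjusted p of 0.0623 to 0.131), without DKO mouse 1 (0.113) and under 4 other settings (0.0866 to 0.425). For Bcor, both libraries were below the WT mean in LSK and above it in MEP for 4 of 10 members. This held for 11.7% of all genes tested in both (1264 of 10773), and 1532 lay the reverse way, which the rule would also have flagged. The test of the difference did not pass for any member. The effect in LSK minus that in MEP was -1.13 for Phc1 (limma adjusted p = 0.0803), -0.67 for Cbx7 (limma adjusted p = 0.413), -0.45 for Bmi1 (limma adjusted p = 0.179) and -0.20 for Ezh1 (limma adjusted p = 0.607). In MEP, both Bcor libraries for Ezh1 and replicate 1 for Bmi1 were within the WT range.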

How the results depend on the processing

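Of 606 log2 fold changes of single members recomputed under the alternatives, 530 kept their direction and their side of the threshold, 31 lost a call, 17 gained one and 28 changed sign. Members called in DKO against WT in LSK (0) became 1 with a pseudocount of 0.1 (Phc1), 2 with quantile normalization and 2 with each library centred on its median (Cbx2 and Phc1), and 0 to 5 when each library was left out, with 5 without DKO replicate 1. In Bcor against WT in LSK (1) they became 2 in a fit of only the compared genotypes and 2 with variance weights by genotype (Cbx2 and Phc1), and 0 to 2 when each library was left out. In DKO against Bcor in LSK (2) they became 1 with quantile normalization, median centring and variance weights (Cbx7), 0 in a fit of only the compared genotypes, 0 with the adjusted p, and 0 to 5 when each library was left out. In MEP the counts ranged from 2 to 4 for DKO against WT and from 2 to 5 for DKO against Bcor when each library was left out, with 4 and 5 without DKO replicate 1, and the latter became 1 in a fit of only the compared genotypes (Ezh1). The count of members whose DKO effect differed between cell types (1) became 0 with a pseudocount of 0.1, quantile normalization and variance weights, and 0 to 4 when each mouse was left out. With a minimum of 5 FPKM this count was also 0, but there Cbx2 was not tested, since its MEP mean was below that minimum in every genotype. That of the Bcor effect (0) became 2 with variance weights (Bmi1 and Phc1), and 0 to 1 when each mouse was left out, with 1 (Phc1) without either DKO mouse. The cause of these changes was not tested.

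Within a cell type, samples of 1 replicate number were not taken as paired, since not every pair had a correlation of deviations over 0.1. It ran from -0.058 to 0.087 over 13 pairs in LSK, with 0 over 0.1, and from -0.19 to 0.34 over 13 pairs in MEP, with 8 over 0.1. With the replicate block, members called in DKO against Bcor in LSK became 1 (Ezh1), members whose DKO effect differed between cell types became 0, and Bmi1 in DKO LSK became 0.034. The block changed no other count of members.

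Log2 fold changes of DKO against WT that changed sign in LSK were Suz12 (-0.085 with quantile normalization, -0.039 with median centring) and Bmi1 (0.0049 as a ratio of mean FPKM). In MEP they were, with quantile normalization, Jarid2 (-0.14), Bmi1 (-0.054), Pcgf2 (-0.23) and Phc1 (-0.22), with median centring Jarid2 (-0.13), Bmi1 (-0.063) and Phc1 (-0.11), and Cbx2 as a ratio of mean FPKM (0.30). Leaving out each library gave ranges that crossed zero. In LSK these were -0.087 to 0.19 for Suz12, -0.51 to 0.40 for Bmi1, -0.93 to 0.061 for Ezh2, -1.94 to 0.0080 for Cbx2 and -0.15 to 2.46 for Cbx7. In MEP they were -0.12 to 0.19 for Jarid2, -0.38 to 0.47 for Phc1, -0.13 to 0.031 for Eed, -0.071 to 0.50 for Pcgf2, -0.19 to 0.80 for Suz12, -1.40 to 1.0 for Cbx2 and -0.23 to 0.42 for Bmi1. Ezh1 and Cbx7 in DKO MEP kept sign and call under every alternative run, from 0.78 to 1.19 and from 0.77 to 1.81 when each library was left out. Quantile normalization and median centring shifted the median over all genes in DKO MEP from 0.018 to -0.17 and -0.14 on the log2 scale, and the share of higher calls from 59.8% to 39.1% and 42.2%.

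Over all genes, calls in DKO against WT in MEP went from 3376 to 1980 with variance weights, and those in DKO against Bcor in MEP from 3045 to 1946, and to 2010 in a fit of only the compared genotypes. With the adjusted p, calls in Bcor against WT went from 1581 to 690 in LSK and from 302 to 7 in MEP, and those in Dnmt3a against WT from 53 and 45 to 0 and 0. Genes whose DKO effect differed between cell types went from 2153 to 0 with variance weights, and genes whose Bcor effect differed from 27 to 1144. The count for the DKO effect was also 613 without WT replicate 1, 641 without WT replicate 2 and 1356 without Dnmt3a replicate 3. The smaller counts of Dnmt3a against WT, and of the Bcor effect between cell types, moved by over 1.5 times under several further alternatives. With 2 libraries of a genotype and unknown depth, small differences of members listed near 1 FPKM are not resolved.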
